A study of Mus musculus with 45 samples.

Results

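The genes described here are 9 interferon-inducible GTPases of the mouse, 5 guanylate-binding proteins (Gbp2, Gbp3, Gbp5, Gbp6 and Gbp7) and 4 immunity-related GTPases (Iigp1, Irgm1, Irgm2 and Igtp). They were taken by name from the 23420 genes listed in each expression file, whatever their values. All 9 had a row and all 9 passed the filter on low counts, which left 10287 genes. They were followed through 45 RNA-seq libraries of dendritic cells grown from C57BL/6 bone marrow with GM-CSF and sorted as live cells with high CD11c. The cultures came from wild type mice (WT) or from Bat3 fl/fl CD11c Cre mice (KO), in which a Cre driven by CD11c is meant to delete Bat3, the chaperone gene listed in the files as Bag6. WT cells received medium, LPS (the bacterial lipopolysaccharide sensed by TLR4), 4µ8C (an inhibitor of the RNase of the stress sensor IRE1), 4PBA (phenylbutyrate, a chemical chaperone) or rapamycin (an inhibitor of the kinase mTOR) for 8 h. KO cells received medium, LPS, 4µ8C or 4PBA. Each of the 9 groups had 5 biological replicates, and the labels do not say from how many mice they came. The labels give 1 treatment name per group and no dose, so whether LPS was also present with 4µ8C, 4PBA or rapamycin is not given in the sources used here.

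Guanylate-binding proteins are large dynamin-like GTPases that assemble in coats on pathogen vacuoles and on bacterial lipopolysaccharide, open those vacuoles and help caspase-11 and other inflammasomes to fire. Immunity-related GTPases are smaller proteins of the same defence. Effectors such as Iigp1 (Irga6) load onto parasite vacuoles and disrupt them, whereas the regulators Irgm1, Irgm2 and Igtp (Irgm3) sit on host membranes and hold the effectors inactive there. Both families are switched on by interferons through promoter elements. Factors such as IRF1 bind interferon-stimulated response elements (ISRE), and other factors of the pathway bind gamma-activated sites (GAS). In myeloid cells LPS reaches the same genes by way of secreted interferon beta.

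Promoter sequences are shown for 5 members that span the range of responses below, from Gbp5 to Irgm1, and for the neighbouring pair Igtp and Irgm2. Each is the 250 bases before the annotated start in RefSeq, build GRCm38.p6, written 5′ to 3′ on the strand of the gene, with matches to the searched motifs in capitals. The windows are chr3:142496684-142496933 (plus strand) for Gbp5, chr3:142620413-142620662 (plus) for Gbp2, chr11:48871421-48871670 (minus) for Irgm1, chr11:58199306-58199555 (plus) for Igtp and chr11:58214727-58214976 (plus) for Irgm2.
Gbp5: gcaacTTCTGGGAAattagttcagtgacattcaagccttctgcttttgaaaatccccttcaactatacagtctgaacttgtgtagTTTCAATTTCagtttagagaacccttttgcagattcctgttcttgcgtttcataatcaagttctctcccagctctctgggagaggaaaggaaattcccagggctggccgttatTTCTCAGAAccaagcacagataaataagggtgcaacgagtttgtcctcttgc
Gbp2: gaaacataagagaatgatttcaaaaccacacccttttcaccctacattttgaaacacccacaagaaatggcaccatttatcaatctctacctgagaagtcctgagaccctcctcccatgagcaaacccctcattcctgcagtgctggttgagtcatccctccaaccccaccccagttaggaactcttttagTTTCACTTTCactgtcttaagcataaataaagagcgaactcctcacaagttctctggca
Irgm1: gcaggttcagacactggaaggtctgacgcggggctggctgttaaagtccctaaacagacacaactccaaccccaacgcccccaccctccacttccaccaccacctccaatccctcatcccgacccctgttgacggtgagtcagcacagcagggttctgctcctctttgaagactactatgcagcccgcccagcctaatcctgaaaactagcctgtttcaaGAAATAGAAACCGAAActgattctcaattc
Igtp: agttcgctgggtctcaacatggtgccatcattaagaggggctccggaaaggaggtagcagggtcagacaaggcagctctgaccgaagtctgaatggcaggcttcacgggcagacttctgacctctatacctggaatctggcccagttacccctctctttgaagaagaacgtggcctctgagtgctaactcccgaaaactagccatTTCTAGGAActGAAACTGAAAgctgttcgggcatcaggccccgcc
Irgm2: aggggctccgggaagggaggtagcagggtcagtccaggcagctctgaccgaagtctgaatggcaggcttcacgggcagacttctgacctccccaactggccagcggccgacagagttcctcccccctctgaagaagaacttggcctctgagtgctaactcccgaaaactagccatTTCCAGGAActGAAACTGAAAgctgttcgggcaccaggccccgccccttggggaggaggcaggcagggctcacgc
The motifs were an ISRE core, GAAANNGAAA, and a GAS, TTCNNNGAA, each read on both strands. Promoters were searched for 7 of the 9 members. Gbp6 and Iigp1 were not among them, so whether these 2 hold the motifs was not tested. An ISRE core was found in 7 of the 7 searched members, against 2.98% of 32851 annotated promoter windows of the same length. A member was counted if any of its windows matched, whereas the shares of all promoters are per window. The 7 members had 8 windows, and a further window of Gbp3 held neither motif. The ISRE match ended between 15 and 156 bases before the start, 156 in Gbp5 and 50 in Gbp2. In Irgm1 a pair of ISRE matches overlapped, and the same was found in Gbp3. A GAS was found in 4 of 7 members (Gbp5, Gbp7, Igtp and Irgm2), against 7.02% of all windows, and those 4 also held the ISRE core, against 0.332% of all windows with both. Gbp2, Gbp3 and Irgm1 had no GAS letters in their windows. Igtp and Irgm2 shared a run of 55 identical bases, beginning 181 bases before the start of Igtp and 215 before that of Irgm2. The motif matches of both genes lay outside this run, nearer the start. There the GAS letters (TTCTAGGAA in Igtp, TTCCAGGAA in Irgm2) stood before the ISRE core, with the letters ct between them. A match describes letters only, and no binding was measured.

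The libraries held 1509219 to 4737736 expected counts. Bag6, the targeted gene, averaged 12.7 to 15.1 CPM (counts scaled to library size) over the WT groups and 7.53 to 9.75 over the KO groups. Replicate 4 was the highest of each KO group, at 12.4 to 14.9 CPM, inside the WT range of the same treatment. The dendritic cell markers summed to between 1830 and 6570 CPM in each library, although Flt3 reached only 3.68 CPM. In WT libraries that sum was 3110 to 3850 CPM in medium, 3420 to 5780 with LPS and 3150 to 5410 with 4µ8C. It was 2430 to 3970 with 4PBA and 1830 to 2790 with rapamycin, where every library lay below every WT medium and WT LPS library. The 8 macrophage markers summed to between 1270 and 2940 CPM, and in WT libraries the sum was 2180 to 2940 untreated, 1810 to 2340 under LPS, 1440 to 2030 under 4PBA and 2120 to 2880 under rapamycin. Of these 8, 4 were lower and 0 higher with LPS than with medium in WT (21.3% and 18.8% of all tested genes). With 4PBA 5 were lower and 1 higher (43.7% of all genes in either direction). With rapamycin 3 were lower and 1 higher (13.5% and 9.68%). In medium 2 were lower in KO than in WT (8.92% of all genes in either direction). With a plate position term, described below, none of the 8 passed there, C1qa coming nearest at -1.71 (edgeR, adjusted p = 0.059). Markers of T and NK cells, which can be a source of interferon gamma, summed to between 1.60 and 21.6 CPM, most of it Lck, while Cd3g, Nkg7 and Gzma had no count in any library. That sum was 1.60 to 7.11 CPM in WT medium, 6.45 to 14.8 with LPS and 2.66 to 4.61 with rapamycin. The part of any of these marker sets in the results below was not tested. The sample codes end in a letter and a number, read here as a plate well. By that reading 17 libraries lay on the plate's edge (outer), among them all of WT medium and WT LPS, and 28 lay inside it, among them all of KO medium and both 4PBA groups. With group and position in 1 fit, 417 of 10287 genes differed by position, and 0 of 9 GTPases did (log2 differences of -0.18 to -0.02, 0 at unadjusted p below 0.05). At that share 0 of 9 does not set the GTPases apart from other genes. The position term rests on the groups that hold both kinds of library (WT 4µ8C, WT rapamycin, KO LPS and KO 4µ8C).

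Measured per length, in TPM, Gbp2 was the most abundant GTPase in every group, and Irgm2 stood between the seventh and the last place in each. In WT medium Gbp2, which is recruited to Toxoplasma vacuoles, stood at 521 ± 173 TPM (mean ± SD, n = 5), Irgm1 at 197 ± 44.8 and Gbp5, which has been linked to inflammasome assembly, at 19.3 ± 6.31. With LPS the same genes stood at 1435 ± 110.5, 375 ± 56.4 and 154 ± 10.9 TPM. Gbp5 thereby moved from the last of the 9 to the sixth. In WT medium the order after Gbp2 and Irgm1 was Gbp6 (116 ± 25.1 TPM), Gbp3 (94.4 ± 27.1), Igtp (68.1 ± 23.3), Gbp7 (52.7 ± 9.42), Iigp1 (31.9 ± 15.8), Irgm2 (24.3 ± 9.20) and Gbp5, with neighbours from Gbp6 to Gbp5 lying within their spreads of each other. The 9 genes together made up 0.113% of all TPM in WT medium, 0.301% with LPS and 0.0472% with rapamycin, and Gbp2 alone was 43.1% to 49.3% of that sum in the 9 groups. The level of Gbp6 is uncertain, since 59.7% of the 50-base stretches of its transcripts also occur in another gene, against 12.9% for Gbp7, 12.3% for Igtp, 7.30% for Irgm2 and under 5% for the other 5. Igtp shares its stretches with Irgm2.

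In WT cells all 9 GTPases were higher with LPS than with medium, and in none of the 9 did the groups overlap, against 13% of all tested genes higher without overlap. Gbp5 rose most. Its 5 medium libraries held 60.1, 40.1, 27.8, 19.6 and 38.6 CPM and its 5 LPS libraries 335, 381, 390.3, 332 and 317 CPM, replicates 1 to 5 in turn. The LPS libraries lay close together, far above the highest medium library. The difference was 9.37-fold, a log2 change of 3.23 ± 0.225 (SE, adjusted p = 2.2e-15), by edgeR's quasi-likelihood test with Benjamini-Hochberg adjustment over all tested genes. In a bulk sample, more RNA per cell and more cells carrying it cannot be told apart. Iigp1, the effector of the second family, went from 79.2, 51.1, 39.7, 30.9 and 102 CPM to 377, 323, 348, 352 and 439.6 CPM. Its LPS libraries all lay above its medium libraries, which themselves spread widely. The change was 6.04-fold, 2.60 ± 0.285 (SE, adjusted p = 1.6e-09) on the log2 scale.

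The remaining guanylate-binding proteins followed. Gbp2 held 1422, 774, 625, 507 and 704 CPM in medium and 2618, 2952, 2606, 2499 and 2334 CPM with LPS, with replicate 1 of medium standing clearly above the other medium libraries. Its log2 change was 1.69 ± 0.21 (SE, adjusted p = 1.3e-08), 3.23-fold. Gbp3 rose 4.04-fold, from 112 to 259 to 590.4 to 659 CPM, Gbp6 2.54-fold, from 263 to 414 to 735 to 927 CPM, and Gbp7, which has been linked to NADPH oxidase assembly, 2.47-fold, from 137 to 269.5 to 440.5 to 503 CPM. Among the regulators the rises were smaller than that of Iigp1. Irgm1 was lowest, with 369.8, 255, 192, 209 and 324 CPM in medium and 575, 555, 544, 635 and 731 CPM with LPS, a log2 change of 1.17 ± 0.16 (SE, adjusted p = 5.8e-08) or 2.25-fold. Irgm2 rose 2.69-fold and Igtp 2.49-fold. LPS changed a large part of the transcriptome, with 40.1% of tested genes called and 18.8% called higher, and the 9 of 9 is read against that. The median log2 change of the 9 was 1.43, against -0.07 over all tested genes.

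**Figure D1:**
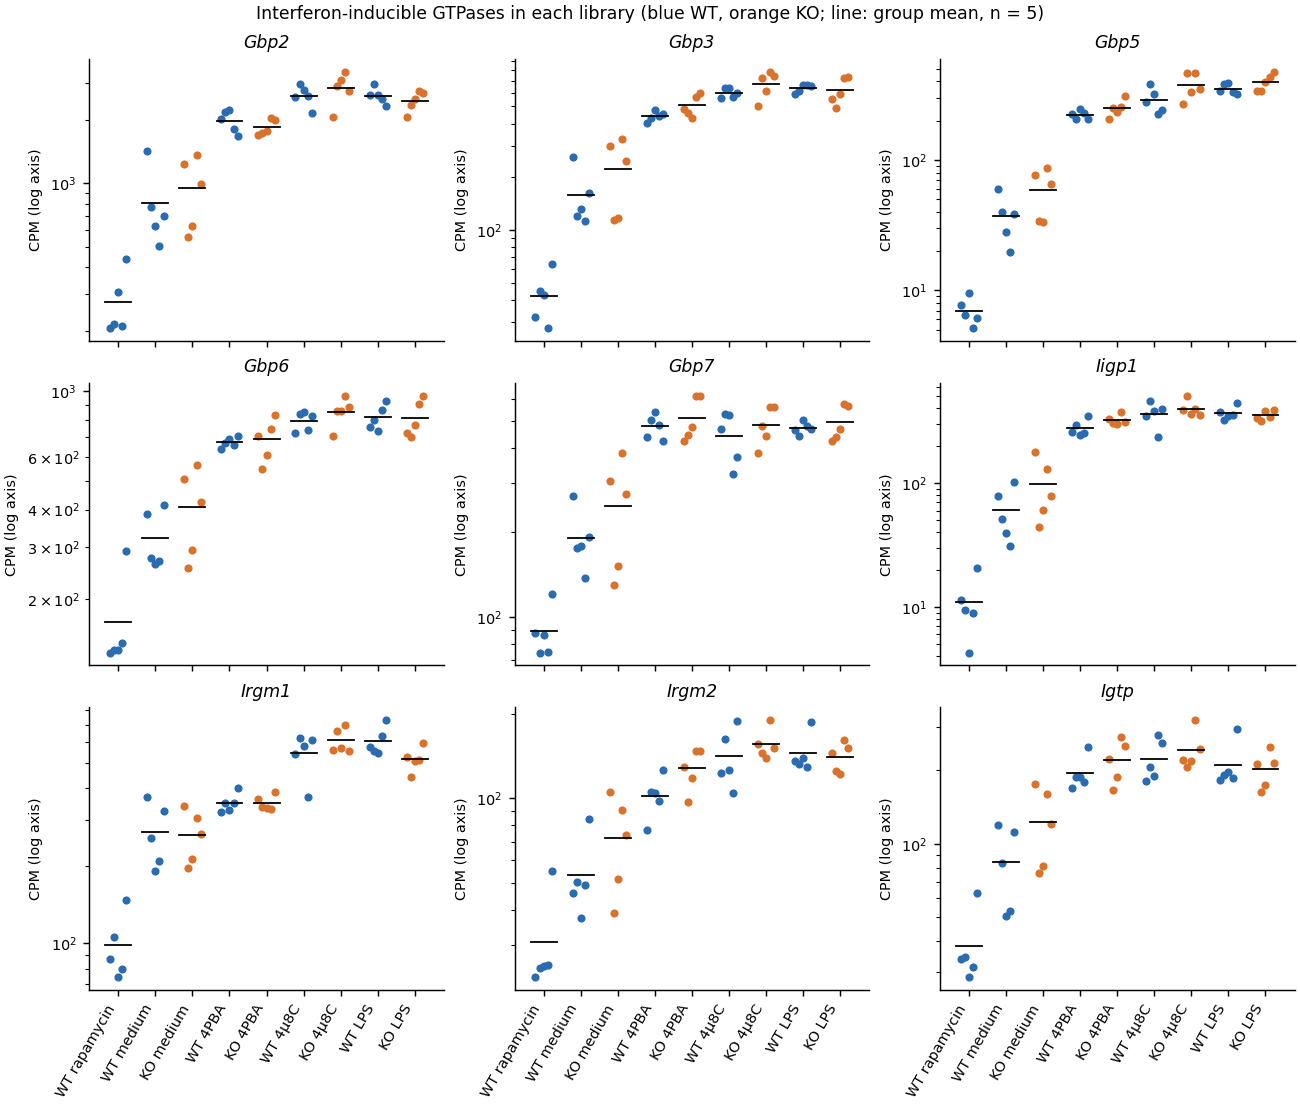
CPM of each GTPase in each of the 45 libraries on a log axis, 1 panel per gene, with WT in blue, KO in orange and a line at the mean of the 5 libraries of a group. Group means are lowest with rapamycin, intermediate in medium and highest with LPS, 4µ8C and 4PBA. In WT, Gbp5 moves over the widest range and Irgm1 rises least with LPS.

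With 4µ8C all 9 GTPases were again higher than in medium, where 20% of all genes were called higher and 40.1% in either direction. Gbp5 held 279, 379, 321, 224 and 240.5 CPM, 7.73-fold above medium, with a log2 change of 2.95 ± 0.22 (SE, adjusted p = 2.6e-14). Irgm1 had the smallest change, 1.02 ± 0.16 (SE, adjusted p = 1.1e-06), and its 4µ8C libraries, at 540.5, 626, 582, 367 and 612 CPM, touched the medium range through replicate 4. It was the only one of the 9 whose groups overlapped, and 10.1% of all genes were higher without overlap. The median log2 change was 1.40. Set directly against LPS, 0 of 9 members differed in WT (0 at an unadjusted p below 0.05) and 0 of 9 in KO (also 0 at an unadjusted p below 0.05). Few genes of any kind differed there, 0.204% in WT and 0.0292% in KO. The 95% intervals of the 9 log2 differences ran between -0.69 and 0.53 in WT and between -0.48 and 0.71 in KO, so changes inside those bounds could have gone undetected.

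With 4PBA 8 of 9 were higher than in medium, where 22.4% of all genes were called higher and 43.7% in either direction, and the median log2 change was 1.29. The exception was Irgm1, a regulator that helps to keep effector GTPases off host membranes. It held 322, 350.5, 328, 351 and 400.5 CPM with 4PBA against 369.8, 255, 192, 209 and 324 CPM in medium, and its ranges overlapped. Its log2 difference was 0.38 ± 0.16 (SE, adjusted p = 0.052). The labels name no pairing, but by a rule on correlation given below the replicate numbers were taken as pairing the samples in this comparison. With the replicate as a block the difference passed the threshold, at 0.40 ± 0.13 (SE, adjusted p = 0.01), as it did with DESeq2, at 0.39 (adjusted p = 0.033). With plate position in the fit it was 0.23 (adjusted p = 0.42). Of the other 8 genes, Gbp5 (5.92-fold) and Iigp1 (4.6-fold) changed most and Irgm2 (1.9-fold) least.

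Set against LPS instead, 2 members were lower with 4PBA in WT, Gbp5 and Irgm1, where 12% of all genes were lower and 27% differed in either direction. Gbp5 held 225, 207, 244, 228 and 205 CPM with 4PBA, below every LPS library, a log2 difference of -0.66 ± 0.20 (SE, adjusted p = 0.013). Irgm1 also lay below every LPS library and differed by -0.795 ± 0.16 (SE, adjusted p = 0.00016). The same 2 genes were lower in KO, where 11.5% of all genes were lower and 24.4% differed, Gbp5 by -0.65 ± 0.20 (SE, adjusted p = 0.015) and Irgm1 by -0.56 ± 0.16 (SE, adjusted p = 0.0076). In KO, Irgm1 held 363, 336, 336, 331 and 386 CPM with 4PBA and 527, 440.0, 508, 512 and 596 with LPS, again without overlap. Gbp7 and Igtp lay at the other end, at 0.02 and -0.11 in WT and at 0.06 and 0.12 in KO. In WT 6 of 9 members, also Gbp2, Gbp3, Gbp6 and Irgm2, had libraries that did not overlap, against 10.1% of all genes lower without overlap. With the replicate as a block, where the numbers were taken as pairing the samples, 4 of 9 were called, adding Gbp3 at -0.53 (adjusted p = 0.046) and Irgm2 at -0.50 (adjusted p = 0.002). With plate position in the fit only Irgm1 was called in WT, and Gbp5 stood at -0.68 (adjusted p = 0.08). The shares of all genes above belong to the fit without these terms, and none is given here for the block or position fits.

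**Figure D2:**
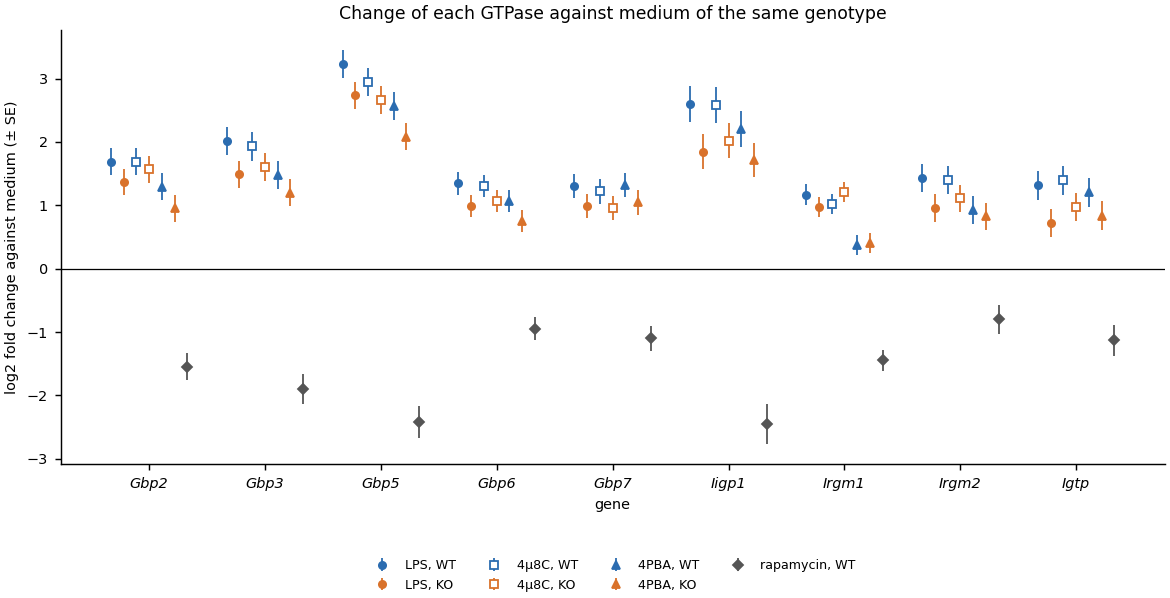
Log2 fold change of each GTPase against medium of the same genotype, with its standard error, for LPS (circles), 4µ8C (open squares) and 4PBA (triangles) in WT (blue) and KO (orange) and for rapamycin in WT (grey diamonds). Every rapamycin value is below 0 and every other value above it. Irgm1 with 4PBA lies nearest to 0, at 0.38 in WT and 0.41 in KO.

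Rapamycin went the other way. All 9 GTPases were lower than in medium, where 13.5% of all genes were called lower and 23.2% in either direction, with a median log2 change of -1.45 against -0.02 over all genes. Gbp5 held 7.72, 6.51, 9.54, 5.11 and 6.12 CPM, below every medium library, a log2 change of -2.42 ± 0.26 (SE, adjusted p = 1e-09) or 5.36-fold lower. Iigp1 held 11.4, 9.36, 4.28, 8.89 and 20.5 CPM, 5.49-fold lower with a log2 change of -2.46 ± 0.32 (SE, adjusted p = 1.3e-07). Both genes that rose most with LPS thus fell most with rapamycin, although the comparisons share the medium libraries. Gbp2 held 206, 217, 306, 211 and 436 CPM and was 2.93-fold lower, and Gbp3 (27.6 to 64.2 CPM) was 3.73-fold lower. Irgm1, the member not called with 4PBA in WT, held 86.9, 106, 74.4, 79.6 and 148 CPM. That was 2.73-fold below medium with no overlap, a log2 change of -1.45 ± 0.165 (SE, adjusted p = 1.6e-09). The groups overlapped for Gbp6, Irgm2 and Igtp but not for the other 6 members, against 9.54% of all genes lower without overlap. In each of these 3 the overlap came from replicate 5 of rapamycin, the highest library of its group for every member except Gbp5. Irgm2 fell least, at -0.80 ± 0.23 (SE, adjusted p = 0.0071) on the log2 scale, with 23.1, 24.8, 25.3, 25.6 and 54.9 CPM. Without replicate 5 of WT medium it no longer passed the threshold, at -0.57 (adjusted p = 0.062).

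Between rapamycin and LPS in WT, where 26.7% of all genes were lower and 56.3% differed in either direction, all 9 GTPases were lower with rapamycin and none overlapped, against 20.4% of all genes lower without overlap. Gbp5 was 50.2-fold lower, with a log2 difference of -5.65 ± 0.27 (SE, adjusted p = 9.1e-22). Iigp1 was 33.2-fold lower, Gbp3 15.1-fold, Gbp2 9.45-fold and Irgm1 6.15-fold. Irgm2 was 4.69-fold lower.

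KO cells were compared with their own medium in the same way. With LPS all 9 were higher than in KO medium (16.7% of all genes called higher, 35.2% in either direction), with 4µ8C all 9 (16.1% and 32.7%) and with 4PBA all 9 (17% and 33.2%). Gbp5 held 76.6, 34, 33.5, 86.5 and 65.6 CPM in KO medium, 337, 339, 397, 428 and 472 with LPS, 269, 459, 332, 462 and 349.9 with 4µ8C and 205, 252, 233, 254 and 310.0 with 4PBA. Its medium libraries lay below all the treated ones, with log2 changes of 2.735, 2.66 and 2.08. Igtp had the smallest change with LPS, 0.72 ± 0.23 (SE, adjusted p = 0.011), and Irgm1 the smallest with 4PBA, 0.41 ± 0.16 (SE, adjusted p = 0.043). Irgm1 held 339.6, 196, 212, 307 and 265 CPM in KO medium, within which replicate 1 reached the 4PBA range. Its 4PBA call was lost when any of 7 libraries was left out (log2 changes of 0.32 to 0.43).

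Between the genotypes few GTPases differed. In medium 1 of 9 was higher in KO, Gbp5 at 0.66 ± 0.22 (SE, adjusted p = 0.045) on the log2 scale, against 6.61% of all genes called higher and 8.92% in either direction. Its KO libraries split, with replicates 2 and 3 inside the WT range and replicates 1, 4 and 5 above it. The other log2 differences ran from -0.03 for Irgm1 to 0.695 for Iigp1 (adjusted p = 0.12). Of the 9 members 8 were above 0, where the median over all tested genes was -0.03. An unadjusted p below 0.05 was reached by 5 of 9, a count for which no share over all genes is given here. The members move together within a library, so neither count has 9 independent parts. The call for Gbp5 did not hold with plate position in the fit (0.645, adjusted p = 0.4), without the filter on low counts (0.675, adjusted p = 0.1) or without any 1 of 7 of the 10 libraries (WT medium 2, 3, 4 or 5 and KO medium 1, 4 or 5, log2 differences of 0.48 to 0.69). Without KO medium replicate 2, 4 of 9 were called (Gbp5, Gbp3, Gbp7 and Iigp1), and without KO medium replicate 3 or WT medium replicate 1, Gbp3 was called beside Gbp5, at 0.655 and 0.75. Without WT medium replicate 5, Gbp5 was lost, at 0.68 (adjusted p = 0.061), and Iigp1, at 0.97, and Irgm2, at 0.66, were called instead. The shares of all genes given above belong to the full fit. None is given here for these refits, so their counts are not read as particular to the GTPases. WT medium lay wholly on the plate's edge and KO medium wholly inside it, so this difference has no value within a position.

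With LPS, 4µ8C and 4PBA 0 of 9 differed between KO and WT, and 0 had an unadjusted p below 0.05 in any of the 3, where 6.06%, 0.953% and 0.496% of all genes were called in either direction. The 95% intervals of the log2 differences ran between -0.59 and 0.58 with LPS, -0.40 and 0.78 with 4µ8C, and -0.52 and 0.76 with 4PBA. Tested directly as an interaction, the response of 0 of 9 members differed between KO and WT for LPS, 4µ8C or 4PBA, and 0 had an unadjusted p below 0.05. Over all genes the interactions called 0.00972%, 1.79% and 4.73%. The interaction for LPS was below 0 in all 9 members, with a median of -0.47 and intervals between -1.52 and 0.27. It shares the KO and WT medium libraries with the genotype comparison in medium, in which 8 of 9 members were above 0.

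**Figure D3:**
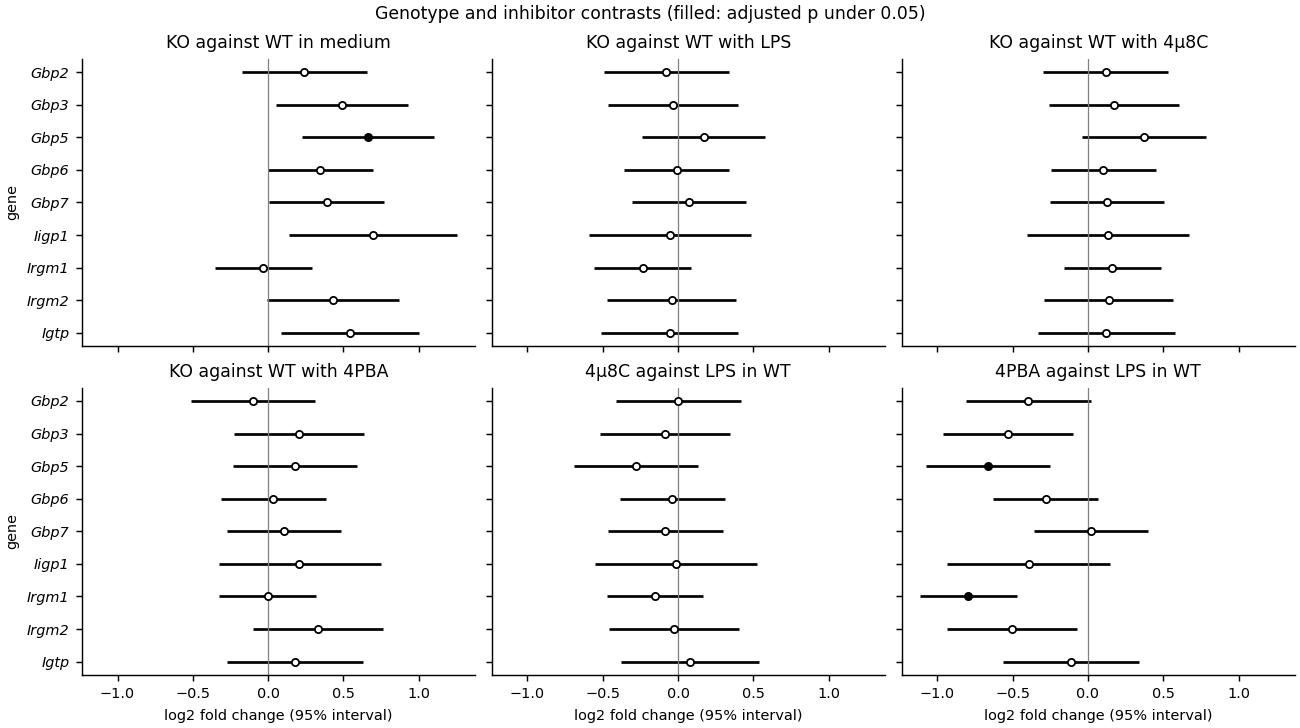
Log2 differences of the 9 GTPases with 95% intervals between KO and WT under medium, LPS, 4µ8C and 4PBA, and between 4µ8C or 4PBA and LPS in WT; filled points passed an adjusted p of 0.05. The filled points are Gbp5 in medium and Gbp5 and Irgm1 for 4PBA against LPS.

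The 9 genes moved together between libraries of the same group. After each group's mean was taken out, the 36 pairs of members correlated at r between 0.35 and 0.88 over the 45 libraries (median 0.74), as a description, since members of 1 library share its depth and scaling. Their mean with the other tested genes gave a median absolute r of 0.15. The mean log2 CPM of the 9 was 7.07 ± 0.43 (SD, n = 5) in WT medium and 7.46 ± 0.59 in KO medium, but 8.92 ± 0.09 in WT LPS and 8.51 ± 0.08 in WT 4PBA. The untreated groups thus spread most, over ranges of 1.00 and 1.26, with rapamycin close behind at 0.93. The ranges were 0.21 to 0.47 in the LPS, 4µ8C and 4PBA groups. In KO medium replicates 1, 4 and 5 stood at 8.01, 8.01 and 7.58, and replicates 2 and 3 at 6.75 and 6.93. Replicate 4 was also the KO medium library with the most Bag6. In rapamycin (5.55 ± 0.38) replicate 5 stood at 6.22, between the other rapamycin libraries and medium.

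**Figure D4:**
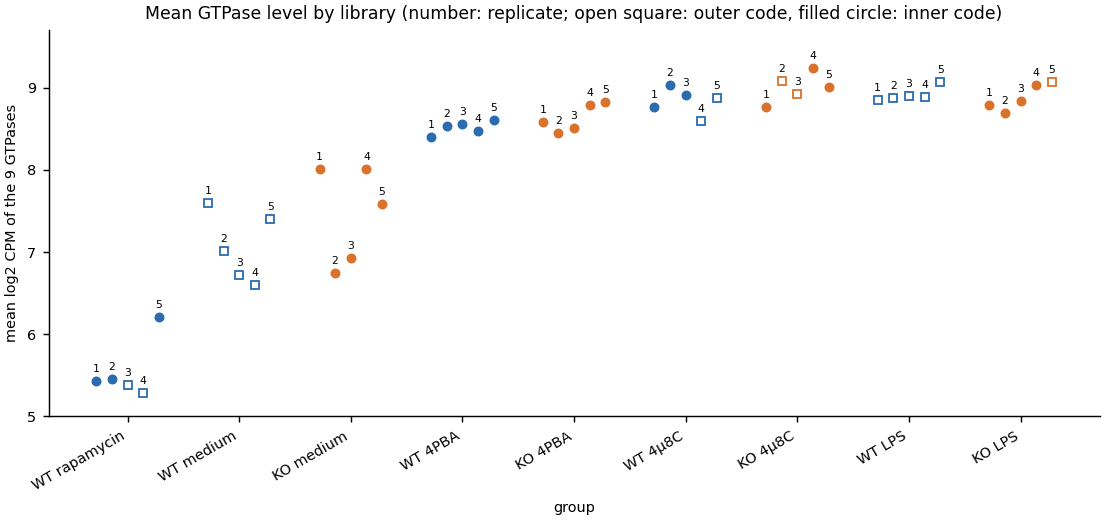
Mean log2 CPM of the 9 GTPases in each library, by group, with the replicate number above each point; open squares are libraries with outer sample codes and filled circles those with inner codes. KO medium splits into replicates 1, 4 and 5 (7.58 to 8.01) and replicates 2 and 3 (6.75 and 6.93), and rapamycin replicate 5 stands apart at 6.22.

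The rest of the pathway was read from lists of related genes. Each count below stands against the share of all tested genes called in the same comparison in WT, 18.8% higher and 21.3% lower with LPS, 9.68% higher and 13.5% lower with rapamycin, and 22.4% higher with 4PBA. Of the 6 other guanylate-binding proteins, 5 rose and 0 fell with LPS in WT (18.8% and 21.3% of all genes), with a median log2 change of 1.46. Gbp4 rose by 2.28, Gbp10 by 1.83 and Gbp9 by 1.71, Gbp11 did not pass (0.17), and the row for Gbp2b is listed in the files as Gbp1 (1.20). With rapamycin 4 of the 6 fell (13.5% of all genes). Of 12 other immunity-related and very large inducible GTPases, 10 rose with LPS, among them the effectors Tgtp1 (2.58) and Tgtp2 (2.02) and the Iigp1 relative Gm4951 (1.44). Irgc1 fell (-1.14). With rapamycin 7 of the 12 fell and 0 rose.

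Among interferon ligands only Ifnb1 had enough counts to test. It rose with LPS in WT by 3.68 ± 0.61 on the log2 scale (SE, adjusted p = 6.5e-06), from 0.956 ± 0.794 CPM to 13.1 ± 6.84 (SD, n = 5), and 4PBA stood between at 6.41 ± 2.81 CPM. With rapamycin it was 0.814 ± 0.81 CPM, and the difference from medium of -0.19 ± 0.88 did not pass the test. Medium itself held only 0 to 1.99 CPM, so a fall was not detectable at this depth. Ifng had a single count in each of 2 of the 45 libraries, and Ifna2, Ifna4, Ifnl2 and Ifnl3 had counts in 1 or 2. Of 7 receptor and kinase genes, where 40.1% of all genes changed with LPS and 23.2% with rapamycin, 4 rose with LPS (Jak2 2.13, Ifnar1 0.88, Ifnar2 0.87 and Ifngr2 0.43) and 1 fell, Ifngr1, the ligand-binding chain for interferon gamma, by 0.72. With rapamycin Ifngr1 rose (0.68) and 3 fell (Ifnar1 -0.48, Jak2 -0.41 and Ifnar2 -0.35).

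Of 10 transcription factor genes, 7 rose with LPS (18.8% of all genes) and 6 fell with rapamycin (13.5%). Irf1 rose by 1.75 and fell by 0.57. With 4PBA 7 rose (22.4% of all genes), Irf1 by 1.05. Irf1 averaged 216 ± 30.3 CPM with 4PBA and 350.5 ± 13.8 with LPS (SD, n = 5). Within groups the deviations of Irf1 followed the mean of the 9 GTPases at r = 0.79 over 45 libraries, as a description only. In the same list, among others, Irf7 stood at 0.73 and Stat2 at 0.68, but Irf8 at -0.40 and Ciita at -0.25. From the other lists Usp18 stood at 0.89, Ifnb1 at 0.47 and Ifngr1 at -0.52. Ifnb1 had at most 87 counts in a library, so its r is not ranked against that of Irf1. Of 6 genes for inhibitors of the signal, 4 rose with LPS, Socs3 by 2.08, Usp18 by 1.74, Ptpn2 by 1.48 and Socs1 by 1.14, and with rapamycin Usp18 (-1.12) and Socs3 (-0.79) fell. Socs1 was lower in outer than in inner libraries (-0.94, adjusted p = 7.9e-08).

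Across the 9 group means of log2 CPM, the genes whose levels followed the mean of the 9 GTPases most closely were Map2k1 (Pearson r = 0.9985), Gbp4 (0.9984), Ccnd2 (0.9976), Gm4951 (0.9970), Trafd1 (0.9970), Slc15a3 (0.9967), Il15ra (0.9967) and AW112010 (0.9964). Of these, Gbp4 and Gm4951 belong to the GTPase lists, Trafd1 is a feedback regulator of innate signalling, and Il15ra presents interleukin-15. Map2k1, the MAP kinase kinase MEK1, averaged 305 ± 69.8 CPM in WT medium, 675 ± 85.0 with LPS and 174 ± 31.5 with rapamycin. Within groups the same likeness held for Gbp4 (r = 0.92), Map2k1 (0.89), Trafd1 (0.83), Il15ra (0.82) and Gm4951 (0.79). It was lower for Slc15a3 (0.62) and AW112010 (0.41), and weak for Ccnd2, which encodes cyclin D2 (0.12).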

How the data were processed

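Gene expression was measured by RNA-seq (TruSeq libraries, 1 µg of total RNA per the labels' protocols) in 45 libraries. Per the submitters' processing notes, bcl2fastq and RSEM were used; their versions, the aligner and the genome build are not stated there. The deposited files hold, per gene, RSEM's expected counts, which are estimated counts and need not be whole (9.09% were not), and TPM, which the authors scaled to gene length and library. Totals ran from 1509219 to 4737736, and Rn45s, the ribosomal RNA precursor, took 8.39% to 12.73% of them.

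Expected counts were rounded and tested with edgeR 4.0.16 (R 4.3.3; TMM, robust quasi-likelihood fit) over the 10287 genes left by filterByExpr, with 9 group means and 36 residual degrees of freedom. P-values were adjusted by Benjamini-Hochberg within each comparison, with a threshold of 0.05. CPM were computed from TMM-scaled library sizes. Intervals are 95%. The fit was tested on simulated counts. Alternatives were DESeq2 1.42.0, its size factors in edgeR, no filter, a plate position term, a replicate block and leaving out each library. The replicate numbers were taken as pairing samples where all same-numbered deviations correlated above 0.1 (7 of 16 comparisons, r of 0.19 to 0.70). Libraries of different numbers were not compared, so the rule does not establish a pairing. By it WT 4PBA paired with WT medium and with WT LPS, yet WT LPS did not pair with WT medium (lowest r -0.17). Named genes were the 9 members, the members of the lists, and the 8 genes most like the members over group means. The members and lists were chosen with earlier results of these data known. Of the listed transcription factor genes, 1 is counted but not reported here by name.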

Additional observations from a re-analysis of the deposited data

Results flagged for a closer look

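Of 81 sets of 5 libraries (9 genes in 9 groups), 9 held a library whose gap to its nearest neighbour was more than 0.71 of the set's range. Chance alone gives about 1 in 20. The sets are not independent, since the members move together within a library.

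In WT rapamycin replicate 5 stood apart in this way for 4 of the 8 members in which it was the highest library. It held 291 CPM of Gbp6, where the nearest library held 142, and 120 CPM of Gbp7, where the nearest held 87.7. It also held 54.9 CPM of Irgm2 against 25.6, and 63.1 CPM of Igtp against 34.6. In WT LPS replicate 5 held 186 CPM of Irgm2 (nearest 139) and 294 CPM of Igtp (nearest 197). In WT 4PBA replicate 5 held 248 CPM of Igtp (nearest 188). In WT medium replicate 5 held 84.5 CPM of Irgm2 (nearest 50.3). In KO 4µ8C replicate 2 held 504 CPM of Iigp1 (nearest 393). Of the 9 values, 8 came from WT libraries numbered 5.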

How the results depend on the processing

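Each alternative was read for 85 single-gene results and for the counts of members called. The shares of all genes called under the alternatives are not given here, so these counts describe the members only. The count between KO and WT in medium, 1, became 0 without the low count filter, 0 with the plate position term and 0 to 4 with 1 library left out. It was also 0 with the replicate block (Gbp5 at an adjusted p of 0.064), although the numbers were not taken as pairing these samples. For 4PBA against LPS in WT the count of 2 became 1 with the position term, 4 with the replicate block, 3 with DESeq2 (adding Gbp3) and 2 to 3 with 1 library left out. For 4PBA against medium in WT the count of 8 became 9 with DESeq2, with its size factors in edgeR and with the block, and was 8 to 9 with 1 library left out, as for 4PBA in KO and rapamycin in WT against medium. The remaining counts did not change under these alternatives. Irgm1 between KO and WT in medium, not called at -0.03, ran from -0.141 to 0.106 with 1 library left out, and turned to 0.106, 0.041, 0.055 and 0.037 without WT medium replicate 1 or 5 or KO medium replicate 2 or 3. The cause was not tested. The replicate block changed no other call of a member. Depth limits Ifnb1, and the other ligands were too low to test.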

Other observations

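Genes that work beside the GTPases were also measured. Of 8 inflammasome partners, 7 were higher and 1 lower with LPS than with medium in WT (18.8% of all genes higher, median log2 change of the 8 1.04). Nlrp3 rose by 2.05, Casp4, the lipopolysaccharide sensor also known as caspase-11, by 1.97, Casp1 by 1.47 and Aim2 by 1.36. Pycard, the adaptor, fell by 1.02. With rapamycin 4 of the 8 were lower (13.5% of all genes), Casp1 (-0.60), Casp4 (-0.56), Naip5 (-0.55) and Gsdmd (-0.34), while Nlrp3 (-0.08) and Aim2 (0.08) did not pass the test.

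Of 10 genes for ATG8 proteins and their conjugation, which guides these GTPases to vacuoles, 0 rose and 2 fell with LPS in WT (18.8% and 21.3% of all genes), Atg7 by 1.39 and Map1lc3b by 0.37. With rapamycin 5 rose and 0 fell (9.68% and 13.5% of all genes), Map1lc3a by 1.99, Atg3 by 1.40, Gabarapl1 by 0.70, Map1lc3b by 0.59 and Atg7 by 0.53. Atg3 and Map1lc3a were lower in outer than in inner libraries (-1.11 and -1.12), and WT medium was wholly outer.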
